A study of Mus musculus with 20 samples.

Results

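The regions described here are the broad H3K27me3 peaks of arrested SS fibroblasts, the peaks over 10 kb long on chromosomes 1 to 19 of the deposited arrested SS list. There were 628 of them among 208802 autosomal peaks of that list, or 0.301% of its peaks and 6.31% of its covered length. They summed to 10.1 Mb, and 5 further peaks over 10 kb lay outside the autosomes. They were chosen by their length in that 1 library, so length, enrichment and q-value in it are descriptions of what was chosen.

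Chromatin immunoprecipitation and sequencing was done on mouse embryonic fibroblasts, primary cells of C57BL/6 embryos at E13.5, grown to passage 4 in 10% serum. WT cells were set beside SS cells, a mutant genotype that the labels do not spell out, and nothing in the labels tells whether a library came from 1 embryo or several. H3K27me3 was assayed in proliferating cells and in cells arrested in 0.1% serum for 72 h, each in WT and SS, and pRb in the same 4 combinations. Ezh2 was assayed under serum deprivation in both genotypes. The arrested pRb libraries carry a label of confluence arrest beside a treatment text that gives low serum. That treatment text stands on every sample, those labelled proliferating included, so arrested and proliferating are taken here from the titles and growth condition labels. Each combination had 1 library, so no difference below has a replicate check, no p-value is given, and the sequencing depth is unknown. Genotype, growth condition, library and list cannot be told apart.

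H3K27me3 is the trimethyl mark on lysine 27 of histone H3, written by Polycomb repressive complex 2, whose catalytic subunit is Ezh2. In differentiated cells the mark can spread from CpG-rich start sites into long domains over silent developmental genes, and its level is known to depend on the balance of writing, removal and dilution at each round of DNA replication. pRb is the retinoblastoma tumour suppressor, which binds E2F transcription factors and holds the cell cycle before S phase. Positions are in the mm9 build of the files, counted from 1. No peak was assigned to a gene, because the annotation at hand belongs to another assembly.

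The lists differed in grain. The arrested SS list had a median peak length of 439 bp, the arrested WT list 138 bp over 632166 autosomal peaks, and the proliferating WT and SS lists 735 and 705 bp. On autosomes, peaks over 10 kb numbered 6 in the arrested WT list, 3356 in the proliferating WT list and 3987 in the proliferating SS list. The shortest gap between neighbouring peaks was 581 bp in arrested SS, 533 bp in arrested WT and 621 bp in both proliferating lists. In each of the 4 lists the widest gap that could have been joined was therefore 4 times the length of the shortest peak, 580, 532 and 620 bp.

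Most of the broad arrested SS peaks lay just above the length limit. Their lengths ran from 10007 to 87100 bp with a median of 13538.5 bp and quartiles of 11321 and 17988.5 bp. There were 383 of up to 15 kb, 112 over 20 kb and 3 over 50 kb. Next below them stood 2277 arrested SS peaks of 5 to 10 kb. Values on either side of the limit overlapped. Just outside it were peaks of 9990 bp on chromosome 4 and 9995 bp on chromosome 14, with fold enrichments of 3.55 and 4.73. Just inside were peaks of 10007 bp on chromosome 10 and 10011 bp on chromosome 2, with fold enrichments of 3.97 and 4.28. Arrested WT peaks covered 35.5% and 52.3% of the pair outside and 61.6% and 36.8% of the pair inside.

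The authors' fold enrichment over background ranged from 3.39 to 6.06 in these 628 peaks, with a median of 4.29. Its median percentile within the arrested SS list was 94.4, and that of the q-value 95.4. The −log10 q-value ran from 2.11 to 8.23 with a median of 3.97. None of the 628 reached 8.56, which was the median −log10 q-value of the arrested WT list. Fold and q-value depend on each list's depth and background, so they order peaks within a list and show no change between lists.

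In proliferating cells, the chromosomal stretches under the broad arrested SS peaks were almost fully covered by H3K27me3 peaks. Proliferating WT peaks covered 535 of the 628 completely and 623 to at least 90%, and the lowest coverage was 82.2%. Proliferating SS peaks covered 551 completely and 625 to at least 90%, and the lowest coverage was 87.3%. In arrested WT cells the same stretches were covered in part. The lowest arrested WT coverage was 12.0%, the quartiles were 41.4% and 61.2%, the median was 51.6% and the highest value was 99.2%.

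These shares were read against all autosomal arrested SS peaks, most of which are far shorter. Arrested WT peaks covered at least 50% of 334 broad peaks, or 53.2% (Wilson 95% interval 49.3 to 57.1%), and of 12.0% of all arrested SS peaks. Among the arrested SS peaks of 5 to 10 kb that share was 28.5%. Proliferating WT peaks covered at least 50% of all 628, against 37.3% of all arrested SS peaks. Proliferating SS peaks likewise covered at least 50% of all 628, against 42.9% of all arrested SS peaks. In the 5 to 10 kb class the shares were 99.4% for proliferating WT and 99.9% for proliferating SS, nearly as high. The lower quartile of coverage in that class was 99.4% in proliferating WT and 100% in proliferating SS. Near-complete coverage was thus not particular to peaks over 10 kb. Over all arrested SS peaks the median coverage was 0% in proliferating WT and 11.5% in proliferating SS. The intervals cover counting error only and treat neighbouring peaks as independent.

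The covered share fell outside the broad peaks but stayed far above that of the remaining autosomes. Pooled over length, arrested WT peaks covered 53.1% of the 628 peaks, 28.1% of flanks as long as the peak on either side and 7.50% of all autosomal space outside them, taken as the bins of 100 kb that held a peak of any list. Flanks can run into a neighbouring member. Proliferating WT peaks covered 99.5%, 70.8% and 9.41% of the same 3 spaces. Proliferating SS peaks covered 99.6%, 73.6% and 11.4%. The broad peak was more covered than its own flanks in 558 of 628 cases for arrested WT, with a median difference of 22.8 percentage points. For proliferating WT it was more covered in 566 cases and less in 11, and for proliferating SS in 555 and 7. Hence 70 broad arrested SS peaks were no more covered in the arrested WT list than their surroundings.

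**Figure D1:**
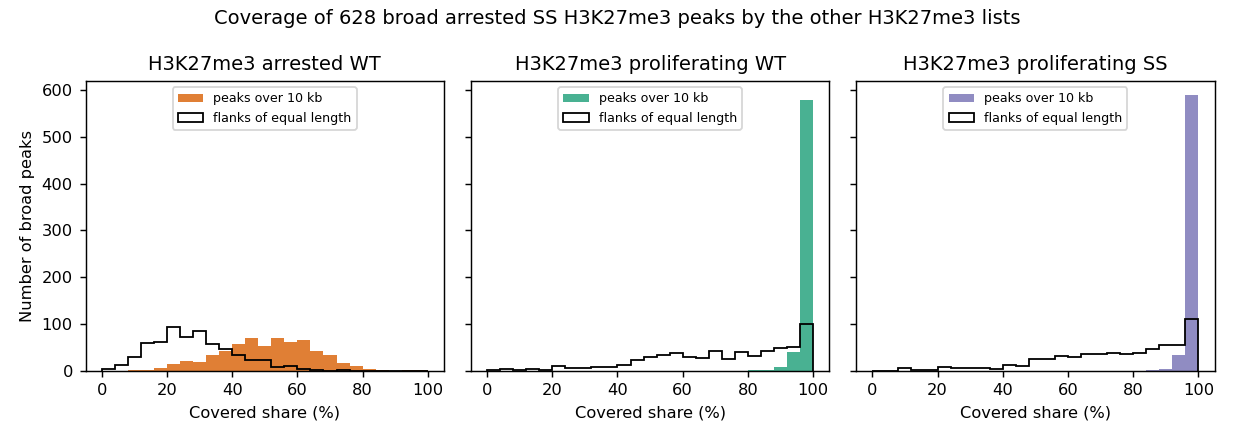
Histograms of the share of each of the 628 broad arrested SS H3K27me3 peaks covered by the arrested WT, proliferating WT and proliferating SS lists (x axis, percent; y axis, number of broad peaks). Filled bars are the broad peaks and outlined bars their flanks of equal length; the arrested WT bars centre on a median of 51.6% and the flanks on 27.2%, whereas both proliferating lists pile up at 100%.

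The arrested WT coverage was broken into pieces. A broad arrested SS peak held between 1 and 25 arrested WT peaks, with a median of 7 and quartiles of 5.75 and 9. There was 1 arrested WT peak in 1 member, 2 in 3 members, 3 to 5 in 153 and more than 5 in 471, of which 84 held more than 10. The longest arrested WT piece inside a member had a median length of 2701 bp and took a median of 18.2% of the member. The longest stretch free of arrested WT peaks had a median of 1683.5 bp, ranging from 418 to 5991 bp. Arrested SS peaks of 5 to 10 kb were broken up as well, with a median of 4 arrested WT peaks. Their longest piece took a median of 21.0% of the peak, and their longest free stretch had a median of 1520 bp. Stretches between neighbouring arrested WT peaks exceeded 532 bp by construction, the widest gap that could have been joined. Only a stretch at a member end could be shorter.

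The proliferating lists showed single peaks over the same stretches. Proliferating WT had 1 peak in 585 members, 2 in 42 and 3 in 1. Proliferating SS had 1 peak in 600 members, 2 in 27 and 3 in 1. At least 50% of the member lay in a single peak for 15 members in arrested WT, or 2.39% (1.45 to 3.90%), against 11.1% of all arrested SS peaks and 7.33% of those of 5 to 10 kb. It did so for all 628 members in proliferating WT, against 36.9% of all arrested SS peaks. In proliferating SS it did so for all 628, against 42.6%. For arrested SS peaks of 5 to 10 kb the shares were 98.0% in proliferating WT and 98.6% in proliferating SS, nearly as high. A single arrested WT peak can cover a short arrested SS peak more easily than a long one. The arrested WT single-peak share in members thus stands below that of all arrested SS peaks, where the covered share stands above it.

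The number of pieces depended on the gap that is joined. With arrested WT peaks joined over 620 bp, as in the proliferating lists, the median fell from 7 to 6 pieces and the median coverage rose from 51.6% to 55.5%. With a gap of 1 kb it fell to 3 pieces, and 244 members had at least 50% in a single arrested WT interval. Joined over 620 bp, the arrested lists had 738 SS and 21 WT intervals over 10 kb. Joined over 1 kb, they had 1903 and 316, and 269 of the 316 WT intervals touched an SS one. The excess of long arrested SS intervals was present at 620 bp and at 1 kb, and its ratio was smaller at 1 kb.

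Longer members and members of higher enrichment held more of the arrested WT mark. Median arrested WT coverage was 47.3% in the 383 members of 10 to 15 kb, 52.6% in 133 of 15 to 20 kb, 58.9% in 83 of 20 to 30 kb and 63.5% in 29 over 30 kb. The median number of arrested WT pieces in these classes was 6, 8, 11 and 15. Per 10 kb of member there were 5.02, 4.53, 4.54 and 3.99 pieces, so members over 30 kb held the fewest pieces for their length. The longest piece had medians of 2284, 2943, 3955 and 5075 bp. In 3 equal groups by the authors' fold enrichment in arrested SS, from low to high, median arrested WT coverage was 41.6%, 51.2% and 59.6%. The Spearman rank correlation over the 628 members was 0.281 between length and arrested WT coverage and 0.547 between fold enrichment and arrested WT coverage. These are descriptions across regions of 1 pair of libraries, with no p-value.

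**Figure D2:**
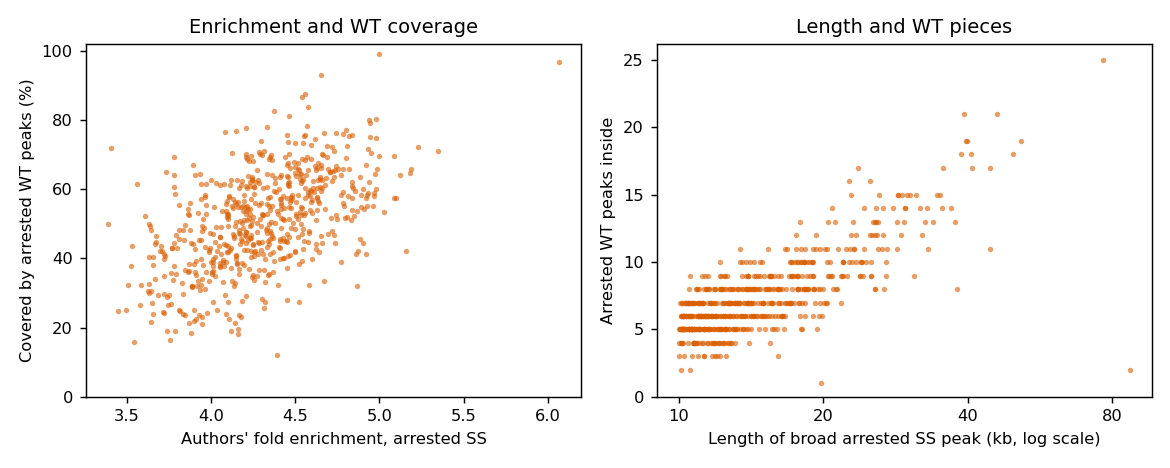
Each point is 1 of the 628 broad arrested SS peaks. Left, the share covered by arrested WT peaks (percent) against the authors' fold enrichment in arrested SS; right, the number of arrested WT peaks inside against the length of the broad peak (kb, log scale). Coverage rises with fold enrichment (Spearman rank correlation 0.547) and the number of pieces reaches 25 in the member of 76618 bp, while the longest, of 87100 bp, holds 2.

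The arrested WT peaks inside members differed from the other peaks of their own list. The 4761 arrested WT peaks that touched a member had a median length of 738 bp, and 39.7% of them were over 1 kb. The 8344 that touched an arrested SS peak of 5 to 10 kb had a median length of 534.5 bp, and 28.9% were over 1 kb. The 619075 others had a median length of 137 bp, and 3.68% were over 1 kb. Peaks at the shortest length in the list made up 46.2% of the others and were less frequent inside members. The median percentile of the authors' fold enrichment was 60.3 inside members and 49.7 among the others. It was 58.6 for those touching a peak of 5 to 10 kb, near the value inside members.

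All 6 autosomal arrested WT peaks over 10 kb lay entirely inside a member. They measured 10206 bp on chromosome 2, 10758 bp on chromosome 3, 85978 bp on chromosome 8, 19166 bp on chromosome 9, 10227 bp on chromosome 10 and 11478 bp on chromosome 15. The members that held them were covered to 75.8%, 72.4%, 99.2%, 96.7%, 93.0% and 74.6% by arrested WT peaks. Only on chromosomes 8 and 9 did a single arrested WT peak span at least 80% of the member.

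Seen from the proliferating cells, the broad arrested SS peaks occupied a minority of the broad peaks, and these were the longer and more enriched ones. A member touched 549 of the 3356 proliferating WT peaks over 10 kb, or 16.4% (15.1 to 17.6%), and 542 of the 3987 in proliferating SS, or 13.6% (12.6 to 14.7%). The proliferating WT peaks with a member had a median length of 27058 bp and a median fold enrichment of 5.15, against 13598 bp and 3.54 for those without. In proliferating SS the medians were 29388.5 bp and 5.77, against 13552 bp and 3.68. Members took a median of 59.0% of their proliferating WT host peak and 56.2% of their proliferating SS host. Long peaks have more room to touch a member, which length classes separate only in part.

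Within length classes the share with a member still differed by enrichment. Of proliferating WT peaks of 10 to 20 kb, 5.78% held a member, of those of 20 to 50 kb 42.9%, and of those over 50 kb 86.3%, or 69 of 80. The 3356 proliferating WT peaks were also split into 3 equal groups by fold enrichment. Among peaks of 10 to 20 kb, the share was 0.689% in the lowest group and 16.5% in the highest. Among those over 20 kb it was 8.74% and 68.2%. In proliferating SS the share was 4.16% for 10 to 20 kb, 35.3% for 20 to 50 kb and 79.8% for over 50 kb.

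In most proliferating hosts, the part called as a broad peak in arrested SS was also the part more covered in arrested WT. In 425 proliferating WT hosts with at least 5 kb outside members, arrested WT peaks covered a median of 52.4% of the member part and 33.8% of the rest. The member part was more covered in 352 of these 425 hosts, with a median difference of 17.9 percentage points. In 440 proliferating SS hosts the medians were 52.2% and 32.9%, and the member part was more covered in 373. The remainder of the hosts was not free of the mark in arrested SS, where shorter peaks covered a median of 59.0% of it in proliferating WT hosts and 57.5% in proliferating SS hosts.

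Most proliferating WT hosts held 1 member. There were 478 with 1, 57 with 2 and 14 with 3 or more. The most, 5, lay in a peak of 162581 bp on chromosome 7 at 86631397-86793977, of which arrested SS peaks of any length covered 89.5% and arrested WT peaks 55.4%. Without a broad host were 5 members in proliferating WT and 4 in proliferating SS, and the member of 14214 bp on chromosome 9 at 56609023-56623236 was among both. It was covered to 94.9% by 2 proliferating WT peaks and to 89.9% by 3 proliferating SS peaks, so the mark was called there in shorter peaks.

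The ends of members seldom coincided with those of proliferating broad peaks. Of 1256 member ends, 139 lay within 500 bp of an end of a proliferating WT peak over 10 kb, or 11.1% (9.45 to 12.9%), and 106 within 500 bp of a proliferating SS end, or 8.44% (7.03 to 10.1%). The median distance was 5.52 kb in proliferating WT and 6.38 kb in proliferating SS. Averaged over ends, arrested WT coverage was 26.0% at 10 to 15 kb outside, 30.8% over the 5 kb just outside, 40.8% over the first kb inside and 53.9% at 4 to 5 kb inside. Proliferating WT coverage at the same places was 65.0%, 81.7%, 97.9% and 99.7%. Proliferating SS coverage was 68.0%, 84.4%, 98.2% and 99.8%. Arrested WT coverage was thus nearly level over the last 4 kb before a member end, which was set in another library, and rose over the first kb inside.

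**Figure D3:**
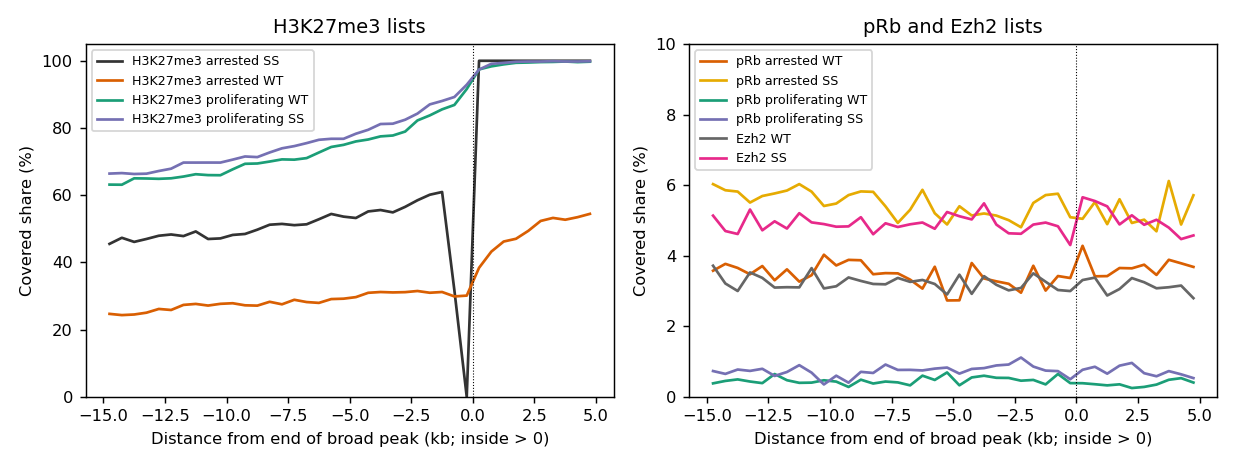
Mean covered share (percent) against distance from the member ends (kb, inside positive), left for the 4 H3K27me3 lists and right for the pRb and Ezh2 lists. Arrested WT coverage rises from 26.0% far outside to 53.9% inside, while the pRb and Ezh2 lines stay flat; the arrested SS line is 100% inside and 0 just outside by construction, since peaks closer than 581 bp are joined.

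Members were spread over all 19 autosomes. Chromosome 2 had 84, or 13.4% of members against 8.76% of the covered length of the arrested SS list. Chromosome 11 had 68 (10.8% against 7.38%) and chromosome 5 had 64 (10.2% against 6.76%). Chromosome 16 had the fewest, 10 (1.59% against 2.92%). Proliferating WT peaks over 10 kb were themselves uneven, with 10.2% on chromosome 2. The share of these that held a member was highest on chromosome 5 at 23.0% (18.2 to 28.6%) and lowest on chromosome 9 at 11.5% (8.10 to 16.0%). The intervals of most chromosomes overlapped.

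**Figure D4:**
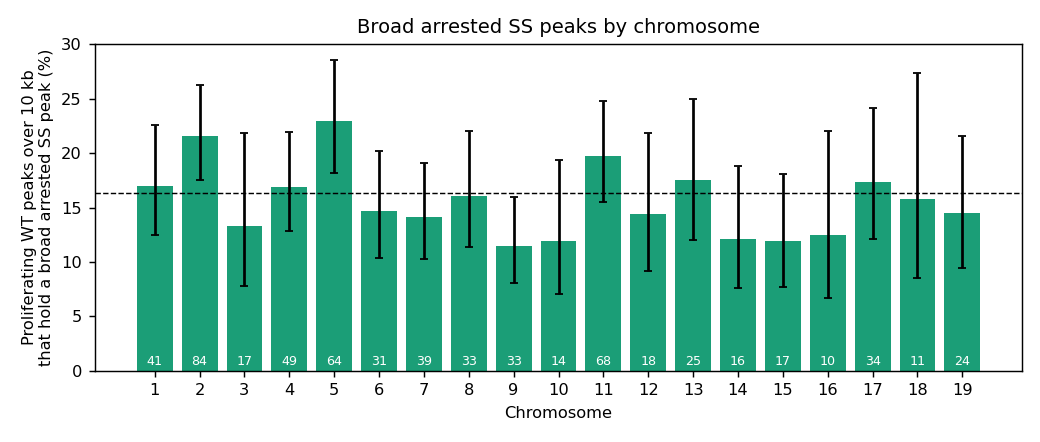
Bars give, for each autosome, the share of proliferating WT H3K27me3 peaks over 10 kb that held a broad arrested SS peak (percent), with Wilson 95% intervals; the number in a bar is its count of broad arrested SS peaks and the dashed line is the share over all autosomes, 16.4%. Chromosome 5 stands highest at 23.0% and chromosome 9 lowest at 11.5%, with intervals that overlap for most chromosomes.

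Members were joined where they were less than 100 kb apart, a grouping not made for other peaks. They formed 436 groups. Of these, 321 were single members and 115 held the other 307. The most, 7, lay on chromosome 1 at 74823529-75006901, where members took 123.2 kb of 183.4 kb. Arrested SS peaks of any length covered 84.6% of that span, arrested WT peaks 45.5%, proliferating WT peaks 92.0% and proliferating SS peaks 94.0%. A group of 5 on chromosome 7 at 86632433-86754570 was the one inside the 162581 bp host named above, and its members were covered to between 52.7% and 81.2% by arrested WT peaks. A group of 5 on chromosome 5 at 35616975-35820570 was less even, with arrested WT coverage of its members from 19.1% to 57.7%.

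The longest member stood apart from the rest. It measured 87100 bp on chromosome 8 at 126061289-126148388, with a fold enrichment of 5.00. Arrested WT peaks covered 99.2% of it, but only 12.1% of its flanks, and 1 peak of 85978 bp made up nearly all of that. The host peaks were 90044 bp in proliferating WT and 87845 bp in proliferating SS, so all 4 lists put their ends within a few kb of each other. By fold enrichment the host ranked 2 of 3356 among the broad proliferating WT peaks at 10.4, and 1 of 3987 in proliferating SS at 12.9. In arrested WT the matching peak had a fold enrichment of 3.87, the lowest of the 6 over 10 kb. It held no Ezh2 peak in WT or SS, where its flanks were covered to 1.93% and 3.34%, and was the only member with none in both. It also held no pRb peak in arrested SS and 1 in arrested WT, but 7 in proliferating WT and 5 in proliferating SS. Proliferating pRb peaks covered 1.12% of it against 0.254% of its flanks in WT, and 0.710% against 1.16% in SS. Copy number, mappability and blacklisted regions were not tested for it.

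A second region was similarly well bounded. The member of highest fold enrichment, 6.06, measured 19818 bp on chromosome 9 at 121129195-121149012. A single arrested WT peak of 19166 bp covered 96.7% of it, and arrested WT coverage of its flanks was 10.6%. Its hosts of 21026 and 20913 bp ranked 1 of 3356 in proliferating WT at a fold enrichment of 10.6 and 2 of 3987 in proliferating SS at 12.8. Proliferating WT peaks covered 4.09% of its flanks, against a median of 76.0% over all members. It held 1 Ezh2 peak in WT and 2 in SS. The fold enrichment of its arrested WT peak was 5.03, below the arrested WT list's median of 5.86. Copy number, mappability and blacklisted regions were not tested for this member either.

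The other long members were of another kind, with many arrested WT pieces and wide hosts. The member of 76618 bp on chromosome 15 at 102735326-102811943 held 25 arrested WT peaks covering 74.6% of it, the longest 11478 bp. It lay in hosts of 184970 bp in proliferating WT and 207222 bp in proliferating SS, whose fold enrichments were 6.53 and 7.21. On chromosome 19, the member of 51635 bp at 44797374-44849008 held 19 arrested WT peaks covering 69.3%, and that of 49604 bp at 45196951-45246554 held 18 covering 64.0%. The member of 46077 bp on chromosome 6 at 52182040-52228116 held 21 covering 63.7%, in hosts of 121581 and 122752 bp. In these 4 members no arrested WT piece took more than 15.0% of the member, whereas 1 peak spanned the whole member in both proliferating lists.

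**Figure D5:**
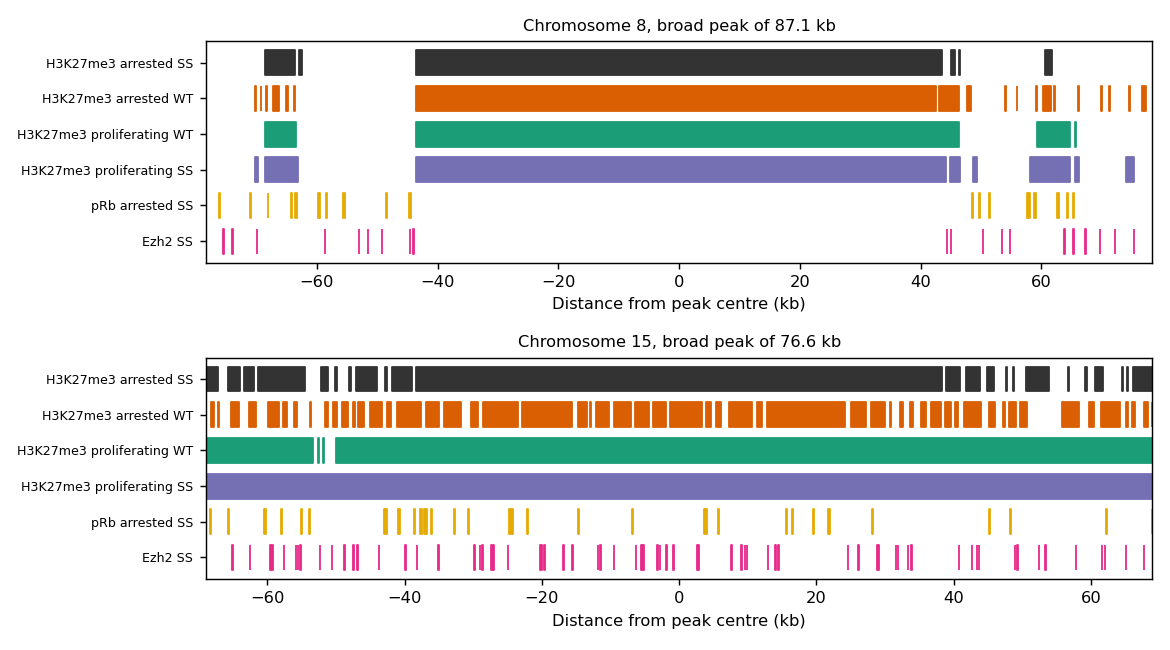
Peaks of the 4 H3K27me3 lists and of the arrested SS pRb and SS Ezh2 lists (rows) around the longest members, on chromosomes 8 (87.1 kb) and 15 (76.6 kb), against distance from the member's centre (kb). On chromosome 8 all 4 H3K27me3 lists show 1 long block and the Ezh2 row is empty over it; on chromosome 15 arrested WT shows 25 separate pieces inside the member, which both proliferating lists cover with 1 peak.

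At the other end, some members had low arrested WT coverage, though above the 7.50% pooled over the space elsewhere. The 3 lowest were less covered than their own flanks. The lowest coverage was 12.0%, for a member of 10768 bp on chromosome 11 at 118362653-118373420, whose longest arrested WT piece was 567 bp. Its fold enrichment in arrested SS, 4.39, was above the members' median of 4.29, and its flanks were covered to 18.7% in arrested WT. On chromosome 17 a member of 12840 bp at 27353566-27366405 had 15.7% coverage and the widest stretch free of arrested WT peaks, 5991 bp. Arrested WT coverage of its flanks was 16.4%. On chromosome 4 a member of 13563 bp at 134719364-134732926 had 16.6% coverage in 10 pieces of which the longest was 595 bp. Arrested WT coverage of its flanks was 33.0%. All 3 were covered to at least 90% in proliferating WT and fully in proliferating SS. The member of lowest fold enrichment, 3.39, on chromosome 2 at 120847330-120858803, had 49.8% arrested WT coverage against 6.42% in its flanks.

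Neither pRb nor Ezh2 peaks were concentrated in the broad arrested SS peaks as H3K27me3 peaks of the other lists were. Pooled Ezh2 coverage was 3.11% in members, 3.25% in flanks and 3.29% elsewhere for WT, and 4.81%, 4.91% and 5.06% for SS. The ratio of members to elsewhere was 0.944 and 0.950, where that of arrested WT H3K27me3 was 7.08. Ezh2 peaks numbered 32.0 per 100 kb of members and 33.7 elsewhere in WT, and 45.6 and 47.4 in SS. These Ezh2 lists consist mostly of very short peaks, with median lengths of 50 bp in WT and 51 bp in SS.

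For pRb, coverage in members, flanks and elsewhere was 3.57%, 3.46% and 3.16% in arrested WT and 5.20%, 5.47% and 5.62% in arrested SS. The ratios of members to elsewhere were 1.13 and 0.926. These pRb lists also held mostly short peaks, with median lengths of 145 bp in arrested WT and 166 bp in arrested SS. Whether such lists resolve occupancy of long regions was not tested. In proliferating cells coverage was 0.415%, 0.464% and 0.470% in WT and 0.753%, 0.730% and 0.637% in SS, with ratios of 0.883 and 1.18. The 4 ratios lay on either side of 1, the WT ratio being the higher in arrested cells and the SS ratio in proliferating cells. No pRb peak was found in 45 members in arrested WT and 11 in arrested SS, and 2 members had none in either. The pRb lists themselves differed in size, with 401665 autosomal peaks in arrested WT and 617903 in arrested SS. The same count was not made for other arrested SS H3K27me3 peaks, so it shows nothing particular to members or genotype.

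Members with the most pRb or Ezh2 coverage in SS had less of it in WT; they were picked for their SS value. The highest arrested SS pRb coverage was 20.2%, in a member on chromosome 17 at 36264747-36276044, which had 5.16% in arrested WT and 9.26% in its arrested SS flanks. The highest SS Ezh2 coverage was 14.7%, on chromosome 4 at 124637881-124652288, where WT had 2.14%. On chromosome 7 at 86697081-86707648, inside the host with 5 members, SS Ezh2 coverage was 14.2% and WT 8.01%. Over the 628 members, the Spearman rank correlation between WT and SS was 0.144 for Ezh2 and 0.0230 for arrested pRb. Within members, the parts that arrested WT H3K27me3 peaks covered and the parts they left bare had alike pRb and Ezh2 coverage, with ratios from 0.923 to 1.00 over the 6 lists.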

How the data were processed

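Peak lists were analysed as deposited, 1 per immunoprecipitated library. Per the submitters' processing notes, reads and peaks went through Bowtie2, MACS2, HOMER and bedtools on mm9; versions, roles and settings were not given in the sources used here. The deposited H3K27me3 and Ezh2 lists hold a score, the authors' fold enrichment as a ratio, and −log10 p and −log10 q values; the deposited pRb lists hold a score of unstated unit. No read counts were used. The 10 input libraries were not analysed here.

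Coverage is the share of a region's bases in peaks of a list, with an overlap of at least 1 bp counted as touching. Flanks are 1 member length on either side. The space elsewhere is the 24020 autosomal bins of 100 kb with a peak of any list, less the members. Members and comparisons were chosen with earlier results of these data known. Named members were the 5 longest, the 3 highest and 3 lowest by fold and by coverage in each other H3K27me3 list, and the 3 highest for arrested SS pRb and SS Ezh2 (25 members in all), plus the 2 peaks nearest the length limit on either side. The clusters, hosts, members without a broad host and long arrested WT peaks named besides were chosen after their values were seen. Intervals are Wilson 95%. Coverage code was tested on simulated lists. Software: matplotlib 3.10.9, scipy 1.17.1, pandas 2.3.3 and numpy 2.4.6 under Python 3.11.15.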

Additional observations from a re-analysis of the deposited data

How the results depend on the processing

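No paired analysis was possible because each group had 1 library. Median proliferating coverage and piece counts were 100% and 1 under each alternative tried for them, at the limit of their scale, so they say little on stability. The median arrested WT pRb difference of members from flanks, 0.0523 percentage points, became -0.0283 with peaks above the median score. Median arrested WT coverage, 51.6%, was 48.3% for members over 8 kb, 60.2% over 20 kb, 57.7% for members above the median fold, 48.0% with arrested WT peaks of at least 500 bp, 40.6% with those above the list's median −log10 q and 73.2% with peaks merged within 1 kb. Joining over 620 bp, added after the data were seen, gave 55.5%. The median of 7 arrested WT pieces became 12 over 20 kb, 4 with peaks of at least 500 bp and 3 merged within 1 kb. The 628 members became 1059 over 8 kb, 112 over 20 kb and 1903 with arrested SS peaks merged within 1 kb. The 15 members with 50% in a single arrested WT peak became 2 at 80%, 244 merged within 1 kb and, added later, 564 within 2 kb. Proliferating broad peaks with a member, 16.4% and 13.6%, became 11.1% and 8.28% where members had to take 50% of the peak, and 46.9% and 39.9% for peaks over 20 kb. Member ends near a proliferating end became 16.3% and 14.0% within 1000 bp. The median WT Ezh2 difference of members from flanks, -0.265 percentage points, became 0 with peaks of at least 500 bp. The piece count therefore depends on the joining gap. Depth is unknown, so how far it shapes the arrested WT pieces was not tested.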
